A study of Mus musculus with 31 samples.

Results

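The liver response to PF-04287881 in WSB/EiJ mice was set against the response in SM/J mice. These are the strains of the series that its coding lists for neither vacuolation of Kupffer cells nor necrosis of single cells, and the comparison asks how far their transcript responses differ and what they share. The members are the 15 arrays labelled WSB/EiJ or SM/J among the 31 arrays of the series: WSB/EiJ given PF-04287881 (3 arrays), WSB/EiJ given vehicle (4), SM/J given PF-04287881 (4) and SM/J given vehicle (4). One further WSB/EiJ mouse of the PF-04287881 group was lost to a gavage error, per the labels. All were inbred females, 8 to 10 weeks old when dosing began, dosed by gavage with the candidate antibiotic PF-04287881 at 600 mg/kg, or with sterile water as vehicle, once a day for 7 days. The left liver lobe was taken 24 hours after the last dose, and total RNA from each animal was hybridised to its own 1-colour array. MA/MyJ and NZW/LacJ, each with 4 arrays a treatment, shared the model and its estimate of the spread.

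Kupffer cells, the macrophages that line the liver sinusoids, take up particles and break them down in lysosomes. In drug-induced phospholipidosis, phospholipid collects in lysosomes and the loaded cells look vacuolated. Hepatocytes burn fatty acids in mitochondria and peroxisomes under the control of the receptor PPAR alpha. They make cholesterol under the sterol-sensing factor SREBP2, and they degrade tagged proteins in the proteasome. Liver transcripts also follow a daily clock in which CLOCK and BMAL1 drive the repressors PER, CRY and REV-ERB.

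Values are log2 intensities per gene. An effect is the mean log2 value after PF-04287881 minus the mean after vehicle within a strain, and the response difference is the WSB/EiJ effect minus the SM/J effect, so that a positive one is higher in WSB/EiJ. Errors with ± are the model's standard errors, and a gene was called at an adjusted p under 0.05 (limma, two-sided, Benjamini-Hochberg over 12890 genes). Levels were not compared between strains, since sequence differences under a probe can change its signal.

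One array, that of animal 3 of the WSB/EiJ PF-04287881 group, went against its label. On a scale built from 86 probe sets whose vehicle level is private to WSB/EiJ, where other strains average 0 and WSB/EiJ averages 1, it lay at -0.00473, and on the NZW/LacJ scale it lay at 1.02. Vehicle animal 4 of WSB/EiJ was at 0.82, the remaining WSB/EiJ arrays were at 0.994 to 1.08, and the SM/J arrays lay between 0.953 and 1.02 on their own scale. The values below therefore rest on 14 arrays, with 2 in the WSB/EiJ PF-04287881 group, and are given again with the array in doubt. The signal at the 3′ end minus that at the 5′ end of the control transcripts for actin and pyruvate carboxylase, which grows as RNA is shortened, averaged 2 to 2.14 log2 units on the WSB/EiJ PF-04287881 arrays of the fit and 1.28 to 1.89 on the WSB/EiJ vehicle arrays. It averaged 1.06 to 1.67 on the SM/J PF-04287881 arrays and 0.92 to 0.95 on the SM/J vehicle arrays. It was therefore higher after PF-04287881 in both strains, and its part in the results was not tested beyond a fit with it as a covariate. Hepatocyte markers were bright in every group, with Alb at 14.69 to 14.8 on the WSB/EiJ and SM/J arrays. Of 18, 1 rose and 1 fell in WSB/EiJ, beside 13.8% and 18.6% of all genes tested. In SM/J 1 rose, beside 2.66% of all genes tested. The median effects were -0.03 in WSB/EiJ and -0.01 in SM/J.

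The response in WSB/EiJ was broader and larger than that in SM/J. PF-04287881 changed 4180 genes in WSB/EiJ, 32.4% of those tested, with 1784 higher and 2396 lower. It changed 600 genes in SM/J, 4.65% of those tested, with 343 higher and 257 lower. Called effects over 1 log2 unit numbered 671 in WSB/EiJ and 60 in SM/J, and the median absolute effect over all genes was 0.225 in WSB/EiJ and 0.11 in SM/J. The median standard error was 0.132 for a WSB/EiJ effect and 0.108 for an SM/J effect. Since the model holds 1 spread per gene for all groups, these errors differ only through the group sizes. They do not measure the spread within either strain. The interaction itself, which tests the difference, called 2196 genes (17%), of which 774 (6%) were higher and 1422 (11.0%) lower in WSB/EiJ. Of the 2196, 1866 (85%) had a called effect in WSB/EiJ alone, 81 in SM/J alone, 47 in both with the same sign, 37 in both with opposite signs and 165 in neither. The absolute effect was larger in WSB/EiJ for 2017 of them (91.8%). Across genes, which are not independent replicates, the effects of the strains had a Pearson r of 0.319 and a Spearman rho of 0.272.

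These counts depend on single WSB/EiJ arrays. With the array in doubt included, the response difference was called for 595 genes (4.62%), 145 higher (1.12%) and 450 lower (3.49%), and 570 of them were among the 2196. WSB/EiJ effects were then called for 2488 genes (19.3%), 891 higher (6.91%) and 1597 lower (12.4%). Without WSB/EiJ PF-04287881 animal 1, which leaves 1 animal in that group with the spread taken from the other groups, 904 differences and 2187 WSB/EiJ effects were called. Among the WSB/EiJ vehicle arrays, animal 3 lay nearest the PF-04287881 mean for 1169 (53.2%) of the 2196 genes. These genes were chosen from the same arrays, and the share over all genes was not taken. Vehicle animal 3 also had the highest 3′ minus 5′ signal of its group, 1.52 for actin and 2.27 for pyruvate carboxylase. The PF-04287881 arrays of the fit read 1.66 and 1.55 for actin and 2.62 and 2.45 for pyruvate carboxylase. Whether this signal underlies the position of animal 3 was not tested. Without vehicle animal 3, 3179 differences were called, of which 2122 were among the 2196.

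**Figure D1:**
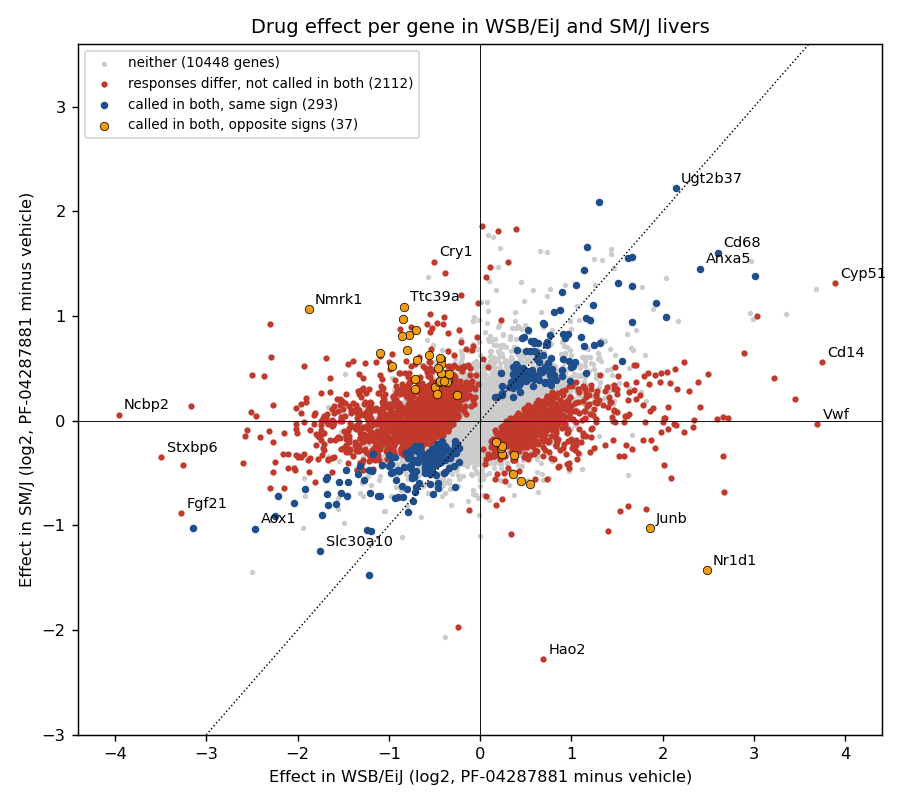
Effect of PF-04287881 on each of 12890 genes in WSB/EiJ (x axis, log2 PF-04287881 minus vehicle) and in SM/J (y axis, same unit). Each point is 1 gene, coloured by whether it was called in both strains with the same sign (293 genes), in both with opposite signs (37), for the response difference without being called in both, or for none of these. The cloud is wider along the WSB/EiJ axis, where the effects had an SD of 0.505, against 0.236 along the SM/J axis.

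The clearest opposition was in genes called in both strains with opposite signs, 37 genes or 0.287% of those tested. Nr1d1, which encodes the clock repressor REV-ERB alpha, read 8.84 and 10.72 after PF-04287881 in WSB/EiJ, against 6.80, 6.81, 7.23 and 8.33 after vehicle. SM/J livers gave 7.55, 8.48, 8.26 and 7.45 after PF-04287881, against 9.24, 9.46, 9.42 and 9.35 after vehicle. Nr1d1 thus rose in WSB/EiJ and fell in SM/J with no overlap between treatments in either strain, and the response difference was 3.92 ± 0.56 (adjusted p = 3.3e-05). It was also called with the array in doubt, at 3.75, and in each fit that left out 1 WSB/EiJ or SM/J array.

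Junb, a subunit of the early-response transcription factor AP-1, read 10.88 and 11.55 after PF-04287881 in WSB/EiJ, against 9.13, 10.15, 9.22 and 8.91 after vehicle. The SM/J arrays read 8.70, 8.33, 8.31 and 8.37 after PF-04287881, against 9.63, 9.34, 9.70 and 9.15 after vehicle. The treatments did not overlap in either strain. The response difference of 2.89 ± 0.39 (adjusted p = 2.03e-05) combined an effect of 1.86 in WSB/EiJ with one of -1.03 in SM/J. Junb lost its call when the array in doubt was added (1.90, adjusted p = 0.0696).

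Nmrk1, a kinase that feeds nicotinamide riboside into NAD synthesis, ran the other way. It read 5.14 and 5.28 after PF-04287881 in WSB/EiJ, against 7.83, 6.72, 6.10 and 7.71 after vehicle. Its SM/J values were 8.63, 8.82, 8.86 and 9.09 after PF-04287881, against 7.70, 7.79, 7.61 and 8.05 after vehicle. It fell by 1.88 in WSB/EiJ and rose by 1.06 in SM/J, a response difference of -2.94 ± 0.42 (adjusted p = 3.56e-05).

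Ttc39a, a protein with tetratricopeptide repeats, read 7.90 and 7.60 after PF-04287881 in WSB/EiJ, against 8.67, 8.79, 8.34 and 8.53 after vehicle. Readings in SM/J were 8.65, 8.26, 8.47 and 8.09 after PF-04287881, against 7.52, 7.27, 7.02 and 7.32 after vehicle. The groups were separate in both strains, and the response difference was -1.92 ± 0.23 (adjusted p = 3.58e-06). Ttc39a also rose in MA/MyJ (1.23) and NZW/LacJ (0.93). Ccdc122 (-1.83) and Arid4a (-1.74), which encodes a chromatin protein that binds the retinoblastoma protein, likewise fell in WSB/EiJ and rose in SM/J. Nmrk1, Ttc39a, Ccdc122 and Arid4a kept their calls with the array in doubt.

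Most of the largest positive differences came from WSB/EiJ. Vwf, the adhesive blood protein von Willebrand factor made by endothelium and platelets, read 10.47 and 9.90 after PF-04287881 in WSB/EiJ, against 6.77, 6.31, 6.52 and 6.37 after vehicle. In SM/J livers it gave 6.96, 6.24, 6.30 and 6.60 after PF-04287881, against 6.57, 6.46, 6.95 and 6.26 after vehicle. The WSB/EiJ treatments were far apart and the SM/J treatments overlapped, giving a response difference of 3.73 ± 0.32 (adjusted p = 3.72e-08). The SM/J values and the WSB/EiJ vehicle values lay near 6.49, the median of all values used as the filter. A decrease of Vwf in SM/J could therefore not be judged. Pf4, a platelet chemokine, was also higher in its WSB/EiJ response, by 1.41 ± 0.38 (adjusted p = 0.011). The array in doubt read 6.39 for Vwf, inside the range of vehicle, and including it took the difference for Vwf to 2.46, which was still called.

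Cd14, the co-receptor through which macrophages and hepatocytes sense bacterial lipopolysaccharide, read 13.13 and 13.08 after PF-04287881 in WSB/EiJ, against 8.85, 9.44, 10.72 and 8.43 after vehicle. SM/J livers gave 8.94, 8.11, 8.33 and 8.35 after PF-04287881, against 8.28, 7.71, 7.78 and 7.71 after vehicle. WSB/EiJ vehicle animal 3 was high for its group but below both PF-04287881 arrays, and the SM/J treatments overlapped. The response difference was 3.18 ± 0.47 (adjusted p = 5.14e-05), and 1.63 (adjusted p = 0.307) with the array in doubt, which read 8.44.

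Socs3, an inducible brake on cytokine signalling through JAK and STAT, read 10.26 and 10.90 after PF-04287881 in WSB/EiJ, against 7.62, 8.27, 8.17 and 7.61 after vehicle. The SM/J arrays read 8.13, 8.24, 8.07 and 8.04 after PF-04287881, against 9.18, 8.70, 9.03 and 8.28 after vehicle. The WSB/EiJ effect of 2.67 was called and the SM/J effect of -0.68 was not (adjusted p = 0.197), and the response difference was 3.35 ± 0.46 (adjusted p = 2.38e-05). Csrnp1, an early-response nuclear protein, had a difference of 2.64 ± 0.32 and likewise no called effect in SM/J. Socs3 and Csrnp1 kept their calls with the array in doubt.

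Trim63, a ubiquitin ligase best known from wasting muscle, read 9.05 and 10.58 after PF-04287881 in WSB/EiJ, against 5.92, 7.27, 7.79 and 4.49 after vehicle. In SM/J it stayed between 3.99 and 4.39 after PF-04287881 and between 3.87 and 4.05 after vehicle. These SM/J values are dim, below the 6.49 used as the filter, so a response of Trim63 in SM/J could not be judged. Of the arrays of these strains, only WSB/EiJ ones lay above it. The difference of 3.24 ± 0.63 was called (adjusted p = 9.2e-04), and the WSB/EiJ vehicle animals ran from 4.49 to 7.79. Pim3, a serine/threonine kinase (3.00 ± 0.58), Rab30, a small GTPase of the Golgi (2.81 ± 0.47), and Itpkc, which phosphorylates inositol trisphosphate (2.69 ± 0.29), were higher in the same sense. Trim63, Pim3, Rab30 and Itpkc lost their calls with the array in doubt. Rab30 and Itpkc each have a dimmer probe set whose difference was not called, at -0.18 for Rab30 and -0.32 for Itpkc.

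Lyve1, the hyaluronan receptor of sinusoidal and lymphatic endothelium, read 8.43 and 9.46 after PF-04287881 in WSB/EiJ, against 7.62, 7.83, 8.10 and 4.97 after vehicle. The low vehicle array was animal 4, which also stood apart on the strain scale. In SM/J Lyve1 read 9.12, 8.97, 7.93 and 9.41 after PF-04287881, against 9.95, 9.30, 9.81 and 9.75 after vehicle. The response difference of 2.66 ± 0.75 (adjusted p = 0.0154) lost its call without WSB/EiJ PF-04287881 animal 2. A dimmer probe set of Lyve1 gave a smaller difference of 1.18, which was not called.

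Hao2, a peroxisomal oxidase of 2-hydroxy acids, was the exception among the 12 largest positive differences, because the called effect was in SM/J. It read 10.67 and 9.84 after PF-04287881 in WSB/EiJ, against 9.65, 8.75, 8.00 and 11.88 after vehicle. The SM/J livers gave 8.30, 9.08, 7.48 and 8.93 after PF-04287881, against 8.98, 11.48, 11.18 and 11.27 after vehicle, an effect of -2.28 (adjusted p = 0.0269). The WSB/EiJ treatments overlapped, and SM/J vehicle animal 1 lay within the PF-04287881 range of its strain. The difference of 2.97 ± 0.96 (adjusted p = 0.0342) was lost when any 1 of 8 arrays was left out.

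**Figure D2:**
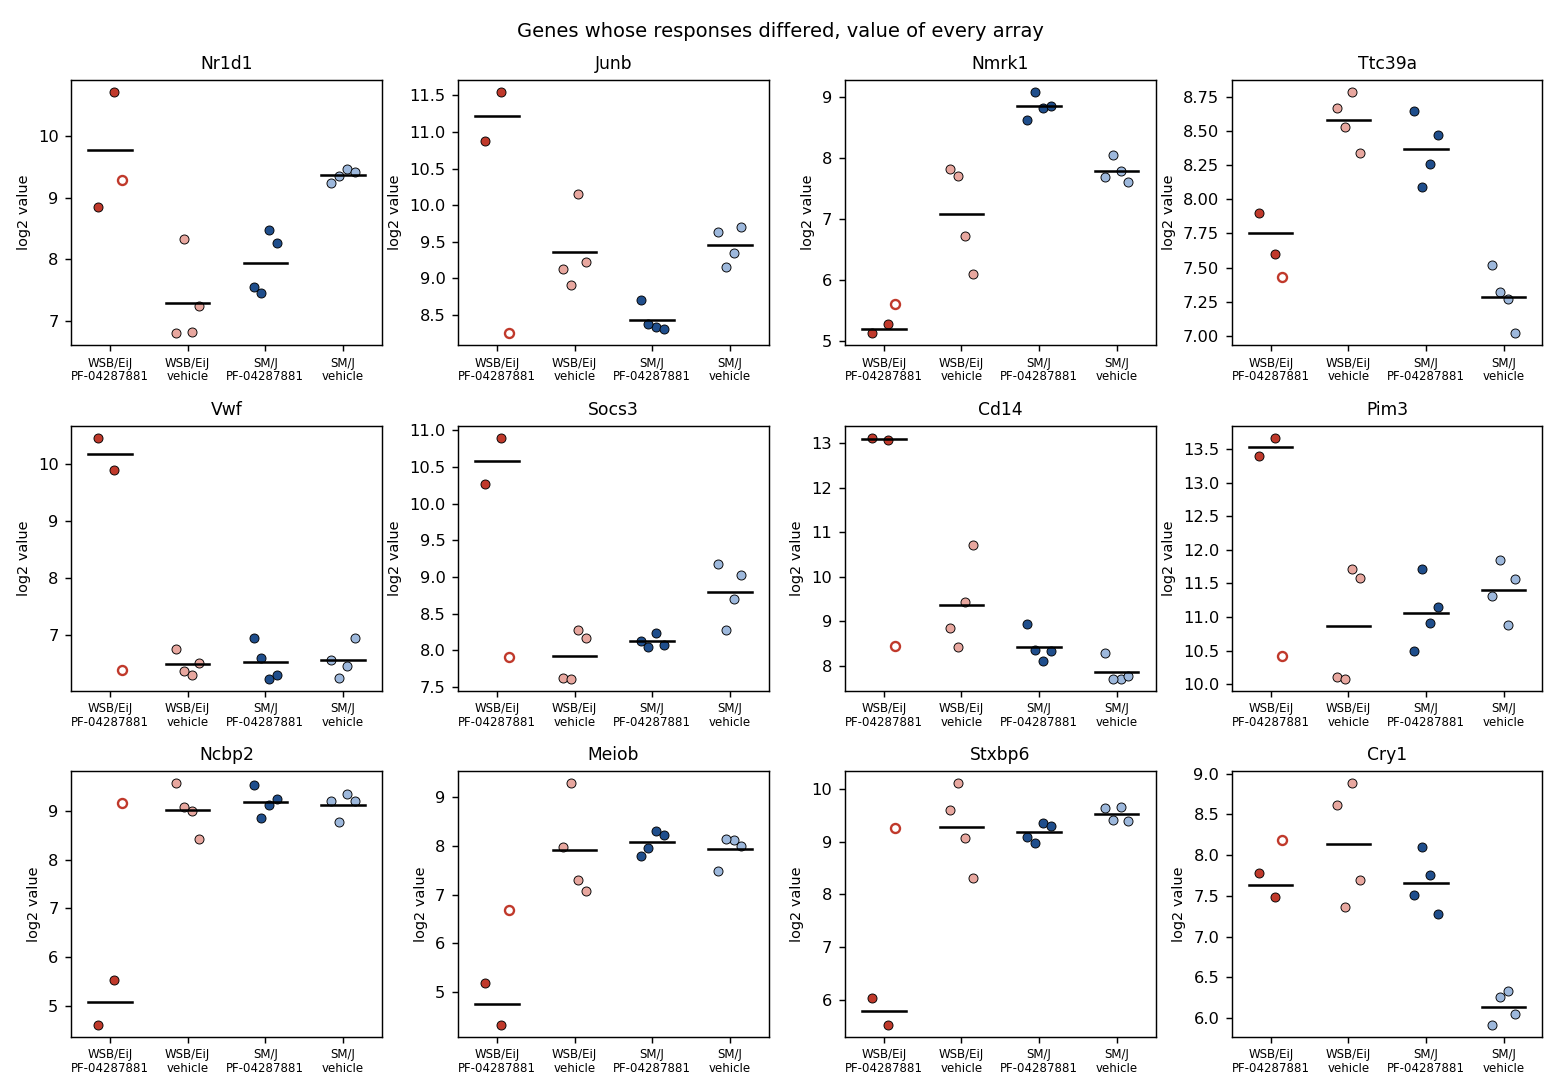
Log2 value of every WSB/EiJ and SM/J array for 12 genes with a called response difference. Within each panel the groups run WSB/EiJ PF-04287881, WSB/EiJ vehicle, SM/J PF-04287881 and SM/J vehicle, bars mark means of the arrays in the fit, and the hollow point is the array in doubt. In the panels of Nr1d1, Junb, Nmrk1 and Ttc39a the PF-04287881 points lie on opposite sides of vehicle in the 2 strains, while in those of Vwf and Ncbp2 the SM/J treatments overlap.

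The largest negative differences were likewise set by WSB/EiJ. Ncbp2, the small subunit of the complex that binds the cap of nuclear RNA, read 4.61 and 5.52 after PF-04287881 in WSB/EiJ, against 9.57, 9.01, 8.43 and 9.09 after vehicle. Its SM/J values were 9.53, 9.12, 9.25 and 8.86 after PF-04287881, against 9.21, 9.35, 9.20 and 8.78 after vehicle. The difference of -4.02 ± 0.33 (adjusted p = 2e-08) was the largest of either sign, and the other probe sets of Ncbp2 gave -2.35 and -0.91. With the array in doubt, which read 9.16, the difference was -2.65 and still called.

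Meiob, a meiotic protein that binds single-stranded DNA, read 5.17 and 4.32 after PF-04287881 in WSB/EiJ, against 7.97, 7.29, 7.08 and 9.29 after vehicle. Readings in SM/J were 7.80, 8.31, 8.23 and 7.96 after PF-04287881, against 7.48, 8.13, 7.99 and 8.15 after vehicle. The SM/J treatments overlapped and the WSB/EiJ treatments did not, with a difference of -3.30 ± 0.48 (adjusted p = 4.41e-05). Stxbp6, which binds SNARE proteins of vesicle fusion, read 6.04 and 5.53 after PF-04287881 in WSB/EiJ, against 9.61, 9.07, 8.31 and 10.11 after vehicle, and its difference was -3.14 ± 0.34.

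Sucnr1, the succinate receptor, had a difference of -3.23 ± 0.58, with 6.03 and 5.99 after PF-04287881 in WSB/EiJ, against 8.57, 7.29, 7.89 and 9.49 after vehicle. Apol7a (-2.94), of the apolipoprotein L family, Keg1 (-2.90), and the zinc finger genes Zfp866 (-2.80) and Zfp719 (-2.50) were lower in the same sense. So were Crebzf (-2.84), a leucine-zipper regulator of transcription, and Tardbp (-2.47), which encodes the RNA-binding protein TDP-43. No SM/J effect was called for these genes or for Stxbp6. Other probe sets of Crebzf ranged from -3.08 to 0.06 and those of Tardbp from -3.15 to -0.17, so the size depends on the probe set. Stxbp6, Sucnr1, Apol7a and Keg1 lost their calls when the array in doubt was added.

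Nfe2l2, which encodes NRF2, the factor that drives antioxidant genes, gave opposite answers from its probe sets. The brighter one read 8.42 and 9.11 after PF-04287881 in WSB/EiJ, against 10.96, 10.79, 10.35 and 10.67 after vehicle, a difference of -2.45 ± 0.28 from SM/J. The other probe set of Nfe2l2 gave a difference of 2.05 (adjusted p = 0.0111), and the average of both was not called. No direction is therefore given for this gene.

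Grouped by role, the differences were uneven, and the lists below were chosen with earlier results of these data known. Over all genes tested, 6% were higher and 11.0% lower, and the median difference was 0. Effects within a strain were called higher for 13.8% and lower for 18.6% in WSB/EiJ, and for 2.66% and 1.99% in SM/J.

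The cholesterol list, enzymes of sterol synthesis and the LDL receptor with its regulators, had 6 of 20 members higher in the WSB/EiJ response and none lower, with a median difference of 0.82. In WSB/EiJ alone 13 of the 20 rose, beside 13.8% of all genes, with a median effect of 1.45. In SM/J 1 of 20 rose, beside 2.66% of all genes, with a median effect of 0.34. Cyp51, which removes a methyl group from lanosterol, read 11.43 and 10.74 after PF-04287881 in WSB/EiJ, against 6.92, 6.85, 7.33 and 7.71 after vehicle. In SM/J livers it gave 10.47, 8.06, 9.02 and 7.46 after PF-04287881, against 7.89, 7.49, 7.57 and 6.82 after vehicle. The SM/J animals given PF-04287881 varied widely, and animal 4 lay within the vehicle range. The difference for Cyp51 was 2.57 ± 0.83 (adjusted p = 0.0337), and leaving out any 1 of 7 arrays ended the call. Dimmer probe sets of Cyp51 gave differences of 1.11 and 1.64, neither called.

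Nsdhl (2.03 ± 0.65) and Tm7sf2 (1.64 ± 0.44), which act after Cyp51 in the pathway, and Lss (1.59 ± 0.35), which forms lanosterol, were also higher. Dhcr7, the last step of one branch, rose in both strains, by 1.51 in WSB/EiJ and by 1.32 in SM/J, and lost its WSB/EiJ call without PF-04287881 animal 1 of that strain. The mean of the 20 members, relative to the strain's own vehicle mean, was 2.06 and 0.89 in the WSB/EiJ PF-04287881 animals, against -0.31 to 0.45 in WSB/EiJ vehicle animals. It was -0.16 to 1.48 in the SM/J PF-04287881 animals, against -0.08 to 0.05 in SM/J vehicle animals. One animal decides this list: without WSB/EiJ PF-04287881 animal 1 none of the 20 differences was called and the median was 0.19, and with the array in doubt 1 was called. Without SM/J PF-04287881 animal 4 there were 3.

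Called differences among genes of fatty acid oxidation and other targets of PPAR alpha went the other way. Of 33, 12 were lower in the WSB/EiJ response and none higher, with a median difference of -0.55. In WSB/EiJ 23 fell and 1 rose, and in SM/J 2 fell, Vnn1 and Acadvl, both of which fell in WSB/EiJ too. Fgf21, a hepatic hormone of fasting, read 6.37 and 6.5 after PF-04287881 in WSB/EiJ, against 9.22, 9.72, 10.76 and 9.14 after vehicle. SM/J livers gave 9.61, 8.64, 8.99 and 9.43 after PF-04287881, against 10.37, 9.98, 10.05 and 9.80 after vehicle. The treatments did not overlap in either strain, but the SM/J effect of -0.88 was not called (adjusted p = 0.266), and the difference was -2.39 ± 0.67 (adjusted p = 0.0148). It lost its call without WSB/EiJ PF-04287881 animal 1 (adjusted p = 0.0823) and with the array in doubt (adjusted p = 0.267).

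Vnn1, a pantetheinase under PPAR alpha, had a difference of -1.33 ± 0.34, Eci1, an isomerase of unsaturated fatty acid oxidation, -1.06 ± 0.18, and Cpt2, of the carnitine shuttle, -0.80 ± 0.17. The mean of the 33 members was -0.71 to -0.65 in the WSB/EiJ PF-04287881 animals, against -0.03 to 0.05 in WSB/EiJ vehicle animals. In SM/J it was -0.3 to 0.08 after PF-04287881, against -0.06 to 0.08 after vehicle. With the array in doubt 2 of the 33 differences were called, and without WSB/EiJ PF-04287881 animal 1 there were 6.

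Of 76 genes for proteins of the mitochondrial ribosome, 20 were lower in the WSB/EiJ response (26.3%) and 1 higher, with a median difference of -0.22. Mrpl14 (-0.94 ± 0.17), Mrps25 (-0.76 ± 0.22), Mrps15 (-0.75 ± 0.16) and Mrpl36 (-0.67 ± 0.15) had the largest differences. Mrpl4, Mrps22 and Mrpl10 fell in both strains. Of 59 respiratory chain subunits 7 were lower and none higher, with Ndufs7 at -0.44 ± 0.10 and a median of -0.13, a share of lower calls near the 11.0% over all genes. With the array in doubt 4 of the 76 and 2 of the 59 were lower, and without WSB/EiJ PF-04287881 animal 1 these counts were 6 and 3. Leaving out WSB/EiJ PF-04287881 animal 2 gave 13 of the 76 lower, vehicle animal 1 gave 12 and vehicle animal 3 gave 31.

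Among targets of p53 and regulators of apoptosis, 6 of 20 were higher in the WSB/EiJ response and none lower, with a median difference of 0.24. Bcl2l1, which encodes the survival protein BCL-XL, read 11.71 and 11.67 after PF-04287881 in WSB/EiJ, against 9.16, 9.71, 9.68 and 8.89 after vehicle. The SM/J arrays read 9.09, 9.11, 8.98 and 8.93 after PF-04287881, against 9.01, 9.11, 9.07 and 9.15 after vehicle. The SM/J arrays thus lay between 8.93 and 9.15 in either treatment, and the difference was 2.39 ± 0.19 (adjusted p = 2e-08). Sesn1, a stress protein that restrains the growth kinase complex mTORC1 (2.62 ± 0.43), Btg2, an antiproliferative gene (1.99 ± 0.62), and Bbc3, the death-promoting protein PUMA (0.79 ± 0.21), were also higher. The array in doubt read 8.83 for Bcl2l1, below the WSB/EiJ vehicle arrays, and 9.49 for Sesn1, within their range. With it, 1 of the 20 was called.

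Of 26 genes of inflammatory signalling and chemokines, 3 were higher in the WSB/EiJ response, Socs3, Cd14 and Nfkbiz (1.34 ± 0.42), an inducible regulator of NF-kappa-B. In WSB/EiJ 10 of the 26 rose, beside 13.8% of all genes, and in SM/J none, beside 2.66%. Of 32 interferon response genes 4 were lower and none higher, Iigp1, an interferon-induced GTPase (-1.75 ± 0.28), Stat2, of the interferon signal (-1.36 ± 0.38), Ifih1, a sensor of double-stranded RNA (-0.90 ± 0.24), and Zbp1, a nucleic acid sensor (-0.69 ± 0.24). That share of 12.5% was close to the background, and 1 vehicle array set the list's direction. The mean of the 32 was 0.11 and 0 in the WSB/EiJ PF-04287881 animals, against 0.94 in WSB/EiJ vehicle animal 4, which also stood apart on the strain scale, and -0.47 to -0.17 in the other vehicle animals. Without vehicle animal 4 the list had 3 higher and 3 lower, and its median difference turned to 0.17 where it had been -0.12.

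Among 27 acute phase proteins 1 was higher, Agt, and 1 lower, Il1rn. Of 24 extracellular matrix genes 3 were higher and none lower, Col4a1 of basement membranes (1.58 ± 0.49), Postn (1.17 ± 0.39) and Lox, a collagen cross-linker (0.48 ± 0.12). The call for Postn was lost when any 1 of 10 arrays was left out and that for Col4a1 when any 1 of 4 was. When the array in doubt was included, 1 inflammatory, 1 interferon, 1 acute phase and 1 matrix gene were called, and without WSB/EiJ PF-04287881 animal 1 the counts were 2 inflammatory, 1 interferon, 0 acute phase and 1 matrix.

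Stress lists had shares of called genes near the background, apart from the NRF2 list. For unfolded proteins and the integrated stress response 5 of 39 were lower (12.8%) and none higher, with Derl3, of the export of misfolded proteins (-1.65 ± 0.37), and Pdia4, an oxidoreductase (-0.88 ± 0.25), at the lead. Of 29 targets of NRF2, 6 were lower (20.7%) and 1 higher. Nqo1, a quinone reductase, was lower at -1.2 ± 0.21, and this list holds Nfe2l2 itself. Among 25 heat shock proteins 2 were lower (8%), Dnajb4 and Dnaja1. Of 39 genes of drug metabolism under CAR and PXR 3 were higher and 1 lower. The 1 lower was Nr1i3, which encodes CAR, at -0.88 ± 0.15, and Gadd45b was at 1.99 ± 0.49. The array in doubt took the calls to 1 of the 39 unfolded protein genes, 3 of the 29 NRF2 targets, 1 heat shock gene and 2 genes of drug metabolism. Without WSB/EiJ PF-04287881 animal 1 the unfolded protein list had 1 lower and the NRF2 list 2, and without WSB/EiJ vehicle animal 3 the unfolded protein list had 6 higher and 8 lower.

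Of 26 genes of bile acid synthesis and transport 3 were higher and 3 lower, with the sterol exporter subunits Abcg5 (1.5 ± 0.35) and Abcg8 (1.05 ± 0.36) against Baat (-1.41 ± 0.28), which joins bile acids to amino acids. Of 24 genes of fatty acid and triglyceride synthesis 3 were lower, of 20 of gluconeogenesis and glycogen 5 lower (25%) and 1 higher, and of 30 of the urea cycle and amino acid catabolism 4 higher (13.3%) and 1 lower. The gluconeogenesis share lay above the background, but its median difference was 0.07, and leaving out 1 array at a time gave 2 to 6 lower. For the urea cycle list there were 2 higher when either PF-04287881 animal of WSB/EiJ was left out. Of 17 cell cycle genes 2 were higher and 1 lower, Ccnd1, which encodes cyclin D1, at -1.99 ± 0.66. The Ccnd1 call was lost when any 1 of 9 arrays was left out and with the array in doubt (-1.83, adjusted p = 0.0834). Ccnd1 rose in MA/MyJ (2.03) and NZW/LacJ (2.66). Of 27 cytosolic ribosomal proteins 2 were lower, and none of 30 genes of ribosome biogenesis was called.

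Genes that break down phospholipids and sphingolipids, the lipids that collect in phospholipidosis, were called higher for 1 and lower for 4 of 28. The share lower, 14.3%, was near the 11.0% over all genes, and the median difference was -0.08. Pla2g15, the phospholipase of lysosomes, read 7.37 and 7.34 after PF-04287881 in WSB/EiJ, against 7.77, 7.49, 7.87 and 8.18 after vehicle. Its SM/J values were 8.02, 8.33, 8.04 and 8.17 after PF-04287881, against 7.83, 8.15, 8.07 and 8.01 after vehicle. It fell in WSB/EiJ without overlap while the SM/J treatments overlapped. The response difference was -0.60 ± 0.18 (adjusted p = 0.0255), with effects of -0.47 in WSB/EiJ and 0.13 in SM/J, against 0.42 in MA/MyJ and 0.64 in NZW/LacJ. Pla2g6 and Pld1, which cleave phospholipids elsewhere in the cell, were each at -0.78, and the secreted phospholipase Pla2g12a was at 0.64. Dimmer probe sets of Pla2g6 gave 0.15, not called, and -1.18, called, and those of Pld1 gave 0.25 and -0.44, neither called. Without WSB/EiJ vehicle animal 4 the calls for Pld1 and Pla2g12a were lost. The difference for Pla2g15 with the array in doubt was -0.37 (adjusted p = 0.313), and its call was lost when any 1 of 5 arrays was left out. The other probe set of Pla2g15, of similar brightness (mean 7.98 against 8.02), gave a difference of -0.2 that was not called. Its effects were -0.41 in WSB/EiJ and -0.21 in SM/J. Of 16 genes of retinoid metabolism 2 were lower, and Retsat, a retinol saturase, fell in both strains, by 2.22 in WSB/EiJ and by 0.72 in SM/J. Of 13 genes of the immunoproteasome and of antigen presentation by MHC class I, 1 was lower, the inducible subunit Psmb9 (-1.37 ± 0.40), and none of 6 genes of MHC class II was called.

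**Figure D3:**
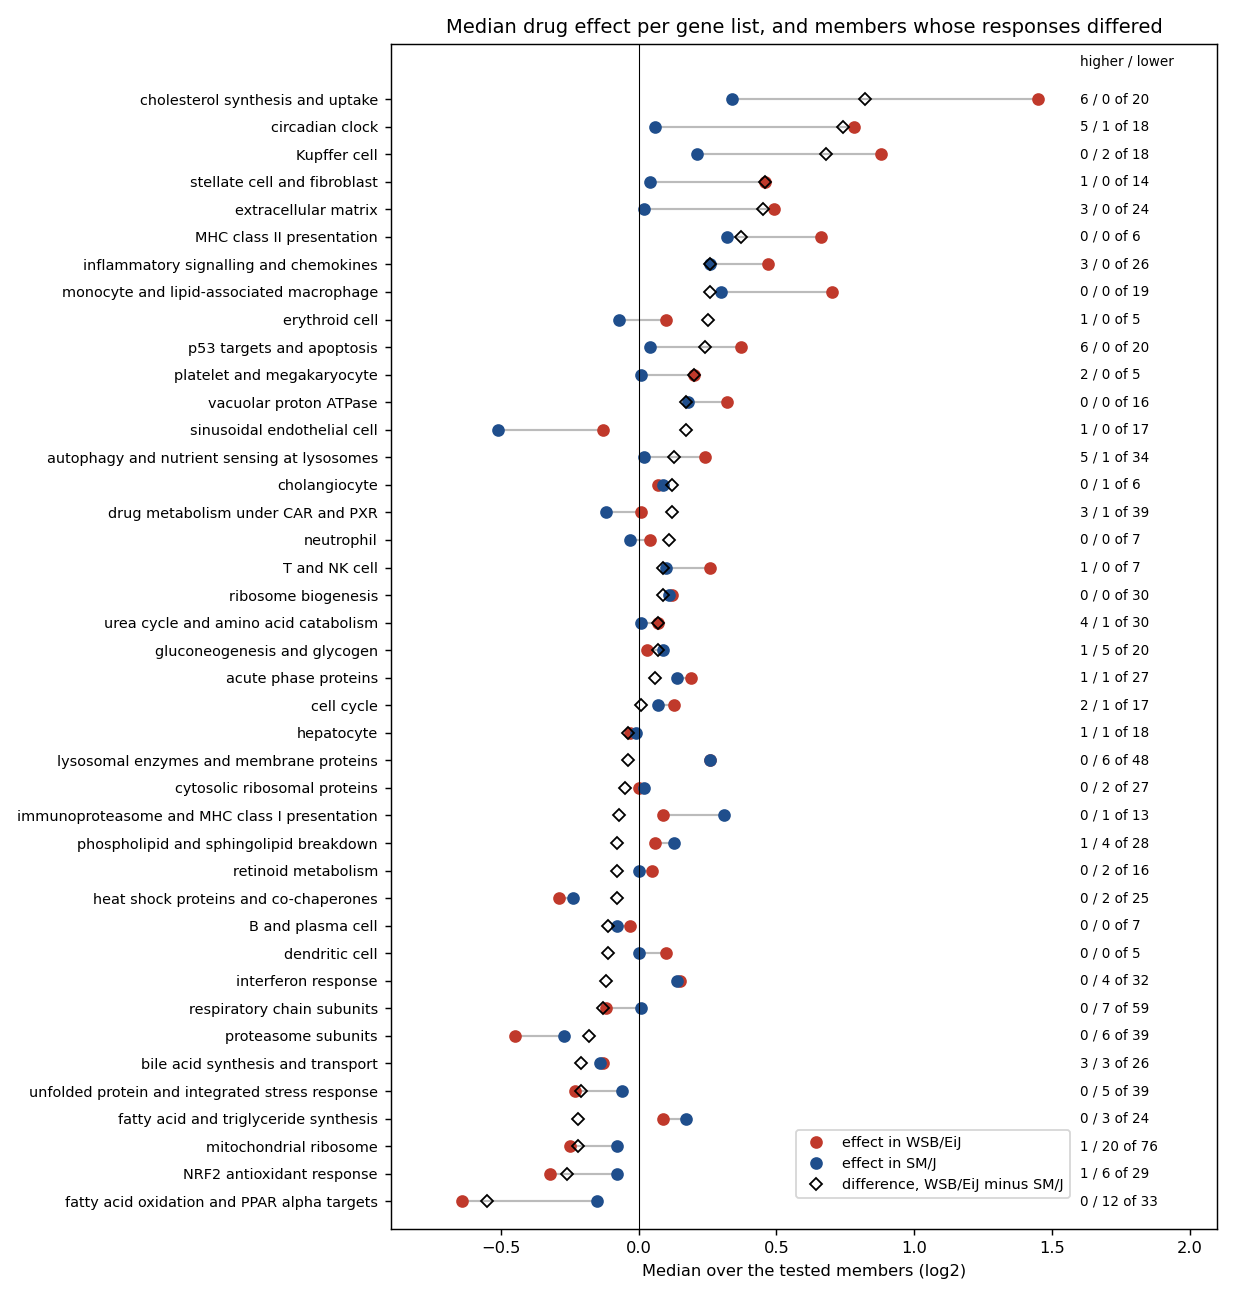
Median effect of PF-04287881 over the tested members of each gene list in WSB/EiJ (red) and SM/J (blue), with the median response difference (diamond), all in log2 units, and beside each list its number of members called higher and lower for the difference. The circadian clock, Kupffer cell and cholesterol lists have the largest positive median differences and fatty acid oxidation the largest negative one.

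The circadian clock list had 5 of 18 members higher in the WSB/EiJ response and 1 lower, with a median difference of 0.74. Besides Nr1d1, the repressor Cry2 (1.55 ± 0.31) and Nfil3 (1.42 ± 0.37), which competes with the activators of the clock output, were higher. Cry1, the other cryptochrome, was lower. It read 7.78 and 7.49 after PF-04287881 in WSB/EiJ, against 8.61, 8.88, 7.70 and 7.36 after vehicle. Readings in SM/J were 7.51, 7.75, 7.28 and 8.10 after PF-04287881, against 5.92, 6.33, 6.05 and 6.26 after vehicle. The WSB/EiJ treatments overlapped and the SM/J treatments did not, so the difference of -2.02 ± 0.39 (adjusted p = 8.56e-04) came from a rise of 1.52 in SM/J. With the array in doubt 1 member was higher and 1 lower, and without WSB/EiJ PF-04287881 animal 1 there were 3 higher and 1 lower. Leaving out WSB/EiJ vehicle animal 3 gave 9 higher and 2 lower. Clock itself fell in both strains by its brightest probe set, by 0.75 in WSB/EiJ and by 0.55 in SM/J. A probe set of similar brightness (mean 8.82 against 8.95) gave -0.08 in WSB/EiJ and -0.38 in SM/J, neither called. A dimmer one gave -0.96 in WSB/EiJ and -0.59 in SM/J, both called. No source used here gives the hour at which tissue was collected, and its part was not tested.

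The promoter windows of clock members were searched for the E-box CACGTG, the element bound by CLOCK and BMAL1, a motif chosen after the values were seen. On either strand it was present for 4 of 16 genes (25%), those being Ciart, Cry1, Per1 and Tef, and in 8.09% of 27025 genes. The window of Cry1 is shown because it carries the element beside the SM/J rise. It covers chr10:85185005-85185304 on the minus strand (RefSeq, GRCm38.p6), 250 bases before to 50 after the transcript start, and the capitals mark the E-box, whose first base lies at -60.
Cry1: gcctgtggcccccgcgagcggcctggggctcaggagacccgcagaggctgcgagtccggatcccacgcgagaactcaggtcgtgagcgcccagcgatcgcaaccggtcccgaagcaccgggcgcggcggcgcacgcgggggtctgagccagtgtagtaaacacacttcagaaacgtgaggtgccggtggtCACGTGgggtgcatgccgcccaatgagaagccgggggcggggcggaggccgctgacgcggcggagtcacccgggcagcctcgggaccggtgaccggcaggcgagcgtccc
The window of Nr1d1 had no match to these letters.

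Responses shared by both strains covered 293 genes called with the same sign, 2.27% of those tested, 129 higher (1.00%) and 164 lower (1.27%). They made up 48.8% of the SM/J calls and 7.01% of the WSB/EiJ calls. Of the 293, 47 (16%) also differed in size, close to the 17% called for the difference among all genes. All 47 had the larger effect in WSB/EiJ, as did 91.8% of all called differences. Of the 293, 45 were called with the same sign in MA/MyJ and NZW/LacJ too. With the array in doubt 133 genes were shared (1.03%), 59 higher (0.458%) and 74 lower (0.574%), and 121 of them were among the 293. Without SM/J PF-04287881 animal 1 the SM/J calls numbered 291 and the shared genes 145, and without SM/J vehicle animal 2 they numbered 363 and 172. The shared genes numbered 65 with these strains fitted alone, and 156, of which 42 were higher and 114 lower, with the 3′ minus 5′ signal as a covariate.

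Cd68, a glycoprotein of macrophage lysosomes, read 8.09 and 9.88 after PF-04287881 in WSB/EiJ, against 6.09, 6.18, 6.58 and 6.68 after vehicle. In SM/J livers it gave 9.38, 8.83, 9.18 and 8.44 after PF-04287881, against 7.19, 7.16, 7.78 and 7.27 after vehicle. Every PF-04287881 array lay above every vehicle array of its strain. The effects were 2.60 in WSB/EiJ and 1.61 in SM/J, and the difference of 1.00 ± 0.60 was not called (adjusted p = 0.262). Cd68 also rose in MA/MyJ (2.58) and NZW/LacJ (1.66). Without SM/J PF-04287881 animal 1 the SM/J effect lost its call (adjusted p = 0.0559).

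Anxa5, which binds phosphatidylserine on membranes, read 10.70 and 10.82 after PF-04287881 in WSB/EiJ, against 8.31, 8.19, 8.38 and 8.51 after vehicle. SM/J livers gave 11.44, 11.09, 11.17 and 10.21 after PF-04287881, against 9.51, 9.56, 9.73 and 9.30 after vehicle. The treatments were separate in both strains, and the effect was larger in WSB/EiJ (2.41) than in SM/J (1.45), a difference of 0.96 ± 0.32 (adjusted p = 0.0406). The difference for Anxa5 with the array in doubt was 0.66 (adjusted p = 0.265).

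Ifi27l2b, of an interferon-inducible family, read 8.82 and 9.31 after PF-04287881 in WSB/EiJ, against 7.63, 7.64, 7.62 and 8.12 after vehicle. The SM/J arrays read 10.53, 10.53, 10.72 and 9.59 after PF-04287881, against 8.42, 8.02, 8.12 and 8.45 after vehicle. The SM/J effect (2.09) was the larger of the pair, and the difference of -0.79 ± 0.31 was not called (adjusted p = 0.0854). Orm2, an acute phase carrier protein, rose by 1.62 in WSB/EiJ and by 1.56 in SM/J, and its family member Orm1 by 1.2 in WSB/EiJ and by 0.97 in SM/J. Uap1l1 rose by 1.17 in WSB/EiJ and by 1.66 in SM/J, and in MA/MyJ and NZW/LacJ as well.

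The other shared increases with the largest smaller effect were those of Ugt2b37, a glucuronosyltransferase, of the secreted factor Nrg4, of the SNARE protein Stx3, of Dhcr7 and of Upp2, which splits uridine. Their smaller effects ran from 1.29 for Upp2 to 2.14 for Ugt2b37. The WSB/EiJ treatments overlapped for Ugt2b37 and Nrg4. One or the other call of Ugt2b37 was lost when any of 7 arrays was left out. The SM/J calls of Nrg4, Stx3 and Upp2 were lost with the array in doubt.

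Slc30a10, a manganese exporter, led the shared decreases. It read 8.95 and 9.37 after PF-04287881 in WSB/EiJ, against 11.10, 10.71, 10.75 and 11.09 after vehicle. Its SM/J values were 8.10, 8.59, 8.17 and 7.78 after PF-04287881, against 9.53, 9.52, 9.34 and 9.23 after vehicle. It fell by 1.75 in WSB/EiJ and by 1.25 in SM/J with no overlap, and by 1.63 in NZW/LacJ. The difference between WSB/EiJ and SM/J, -0.50 ± 0.26, was not called (adjusted p = 0.188).

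Ppp1r3c, which targets a phosphatase to glycogen, fell by 1.22 in WSB/EiJ and by 1.47 in SM/J, and Pfn2, an actin-binding profilin, by 1.2 in WSB/EiJ and by 1.05 in SM/J. Sox18, a transcription factor of endothelium, fell by 1.74 in WSB/EiJ and by 0.90 in SM/J. The decrease was larger in WSB/EiJ, by the test of the difference, for Aox1, an aldehyde oxidase (-1.43 ± 0.47), for Vnn1 (-1.33 ± 0.34) and for Gstm4, a glutathione transferase (-0.78 ± 0.23). Without WSB/EiJ PF-04287881 animal 1 the differences for Aox1 (-0.73, adjusted p = 0.439) and Vnn1 (-1.24, adjusted p = 0.0647) lost their calls, and that for Aox1 was lost in most fits that left out 1 array. Ces1e, a carboxylesterase, fell by 0.80 in WSB/EiJ and by 0.87 in SM/J, and in MA/MyJ and NZW/LacJ. For Ggct and Tubb4b, the remaining members of this group, the dimmer probe sets were near 0 in both strains.

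Of 39 proteasome subunits 19 fell in both strains, beside 1.27% of all genes. In WSB/EiJ 32 fell, in SM/J the 19, and none rose in either. The median effect was -0.45 in WSB/EiJ and -0.27 in SM/J, beside 0.02 and 0 over all genes. The 19 include core subunits (Psma2, Psma4, Psma7 and Psmb2 to Psmb6), ATPases of the cap (Psmc1 to Psmc5) and other cap subunits such as Psmd1 and Psmd14. With any 1 array of these strains left out, 15 to 23 shared decreases were called, and the fit with the 3′ minus 5′ signal gave 14.

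Psma4, of the outer ring of the core, read 11.94 and 12.01 after PF-04287881 in WSB/EiJ, against 12.78, 12.82, 12.81 and 12.55 after vehicle. Readings in SM/J were 12.53, 12.49, 12.42 and 12.52 after PF-04287881, against 12.87, 12.80, 12.80 and 12.79 after vehicle. It fell in both without overlap and further in WSB/EiJ, with a difference of -0.44 ± 0.09 (adjusted p = 0.00204). Psmd1, the largest cap subunit, read 11.02 and 11.18 after PF-04287881 in WSB/EiJ, against 11.92, 11.96, 11.72 and 11.75 after vehicle, with SM/J readings of 11.21, 11.17, 11.13 and 11.38 after PF-04287881, against 11.80, 11.71, 11.77 and 11.71 after vehicle. Its difference of -0.22 ± 0.12 was not called. Over the list 6 of 39 differences were called lower, a share of the size found over all genes, with Psma1 at -0.84 ± 0.21.

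Decreases were small in the other strains for the subunits named here. Psmd1 fell by 0.35 in NZW/LacJ, with an effect of -0.02 in MA/MyJ, and Psmc4 fell by 0.23 in NZW/LacJ, with an effect of 0.06 in MA/MyJ. Psma4 had effects of -0.12 in MA/MyJ and -0.11 in NZW/LacJ, neither called.

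The promoter windows of proteasome subunits were searched on both strands for TGACNNNGC, the core of the antioxidant element bound by NRF2 and its relatives. It was present for 6 of 33 genes (18.2%), beside 14% of 27025 genes, so the shares are close. The windows of Psmb5 and Psmb6, catalytic subunits that fell in both strains, are shown because both hold a match. Psmb5 had effects of -0.487 in WSB/EiJ and -0.294 in SM/J, and Psmb6 of -0.487 in WSB/EiJ and -0.246 in SM/J. The windows are chr14:54617946-54618245 on the minus strand for Psmb5, with the first base of the match at -47, and chr11:70525107-70525406 on the plus strand for Psmb6, with it at -9 (RefSeq, GRCm38.p6, capitals mark the match).
Psmb5: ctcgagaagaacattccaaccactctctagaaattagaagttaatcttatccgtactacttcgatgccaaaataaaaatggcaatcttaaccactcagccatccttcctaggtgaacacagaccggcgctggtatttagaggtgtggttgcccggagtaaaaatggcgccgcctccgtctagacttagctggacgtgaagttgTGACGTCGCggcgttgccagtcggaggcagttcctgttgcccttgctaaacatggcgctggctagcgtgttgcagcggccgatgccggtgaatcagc
Psmb6: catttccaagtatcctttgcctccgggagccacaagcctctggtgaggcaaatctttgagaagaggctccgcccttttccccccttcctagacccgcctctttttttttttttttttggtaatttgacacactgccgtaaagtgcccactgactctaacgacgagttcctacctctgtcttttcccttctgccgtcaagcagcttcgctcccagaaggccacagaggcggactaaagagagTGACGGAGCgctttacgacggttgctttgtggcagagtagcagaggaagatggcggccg
The sterol element TCACNCCAC was present for 1 of 16 genes of the cholesterol list, Hmgcs1, and in 1.44% of all genes.

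Of 48 enzymes and membrane proteins of lysosomes, 11 rose in both strains, beside 1.00% of all genes. In WSB/EiJ 20 rose and 5 fell, beside 13.8% and 18.6% of all genes, in SM/J 16 rose and none fell, beside 2.66% and 1.99%, and the median effect was 0.26 in each strain. Galns, a sulfatase of glycosaminoglycans, read 7.61 and 7.48 after PF-04287881 in WSB/EiJ, against 6.32, 6.16, 6.49 and 6.67 after vehicle. In SM/J livers it gave 7.52, 7.67, 7.66 and 7.41 after PF-04287881, against 6.83, 7.01, 6.79 and 6.78 after vehicle. The treatments did not overlap in either strain, nor did they for Arsa, a sulfatase of sulfatides, which rose by 0.59 in WSB/EiJ and by 0.74 in SM/J, with the SM/J call lost without SM/J PF-04287881 animal 1 or 3 and the WSB/EiJ call lost when any 1 of 5 WSB/EiJ arrays was left out. Asah1, acid ceramidase, rose by 0.56 in WSB/EiJ and by 0.47 in SM/J. The shared count was 3 without SM/J PF-04287881 animal 1 and 2 with the 3′ minus 5′ signal as a covariate.

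For the response difference, 6 of the 48 lysosomal genes were lower in WSB/EiJ (12.5%) and none higher, with a median difference of -0.04. That share is near the 11.0% over all genes. With 1 array left out at a time, 0 to 2 were higher and 3 to 10 lower. Acp2, a lysosomal acid phosphatase, read 9.34 and 9.40 after PF-04287881 in WSB/EiJ, against 10.20, 10.22, 10.19 and 10.44 after vehicle, with no called SM/J effect and a difference of -0.81 ± 0.10. Ids, a sulfatase, was at -0.80 ± 0.16, and its dimmer probe sets ranged from -0.86 to 0.23. Npc1, which exports cholesterol from lysosomes, read 10.72 and 10.57 after PF-04287881 in WSB/EiJ, against 10.84, 10.78, 11.12 and 10.72 after vehicle. SM/J livers gave 11.50, 11.17, 11.50 and 11.39 after PF-04287881, against 11.03, 10.95, 11.13 and 10.93 after vehicle. Npc1 had an effect of -0.22 in WSB/EiJ, not called, and rose by 0.38 in SM/J, a difference of -0.60 ± 0.14 (adjusted p = 0.00356) that was also called with the array in doubt (-0.59) and in each fit that left out 1 WSB/EiJ or SM/J array.

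Manba, a mannosidase, had a difference of -0.62 ± 0.17, again from a rise in SM/J, but this one turned to 0.09 with the array in doubt. That array read 9.04 for Manba, where the other WSB/EiJ arrays read 6.75 to 7.43. Of 16 subunits of the proton pump that acidifies lysosomes 8 rose and 1 fell in WSB/EiJ and 2 rose in SM/J, none in both, and no difference was called. Of 34 genes of autophagy and nutrient sensing 14 rose and 4 fell in WSB/EiJ, and 5 rose in SM/J. For both lists, the shares over all genes were 13.8% higher and 18.6% lower in WSB/EiJ, and 2.66% higher in SM/J. Fnip1, Tsc1 and Rragc, which act on the growth kinase mTORC1 at the lysosome, rose in both. Uvrag (0.91 ± 0.16) and Atg12 (0.82 ± 0.10), of autophagosome formation, were among 5 higher in the WSB/EiJ response, and 1 was lower. Without WSB/EiJ PF-04287881 animal 1 there were 2 higher, and without WSB/EiJ vehicle animal 3 there were 11 higher and 2 lower.

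**Figure D4:**
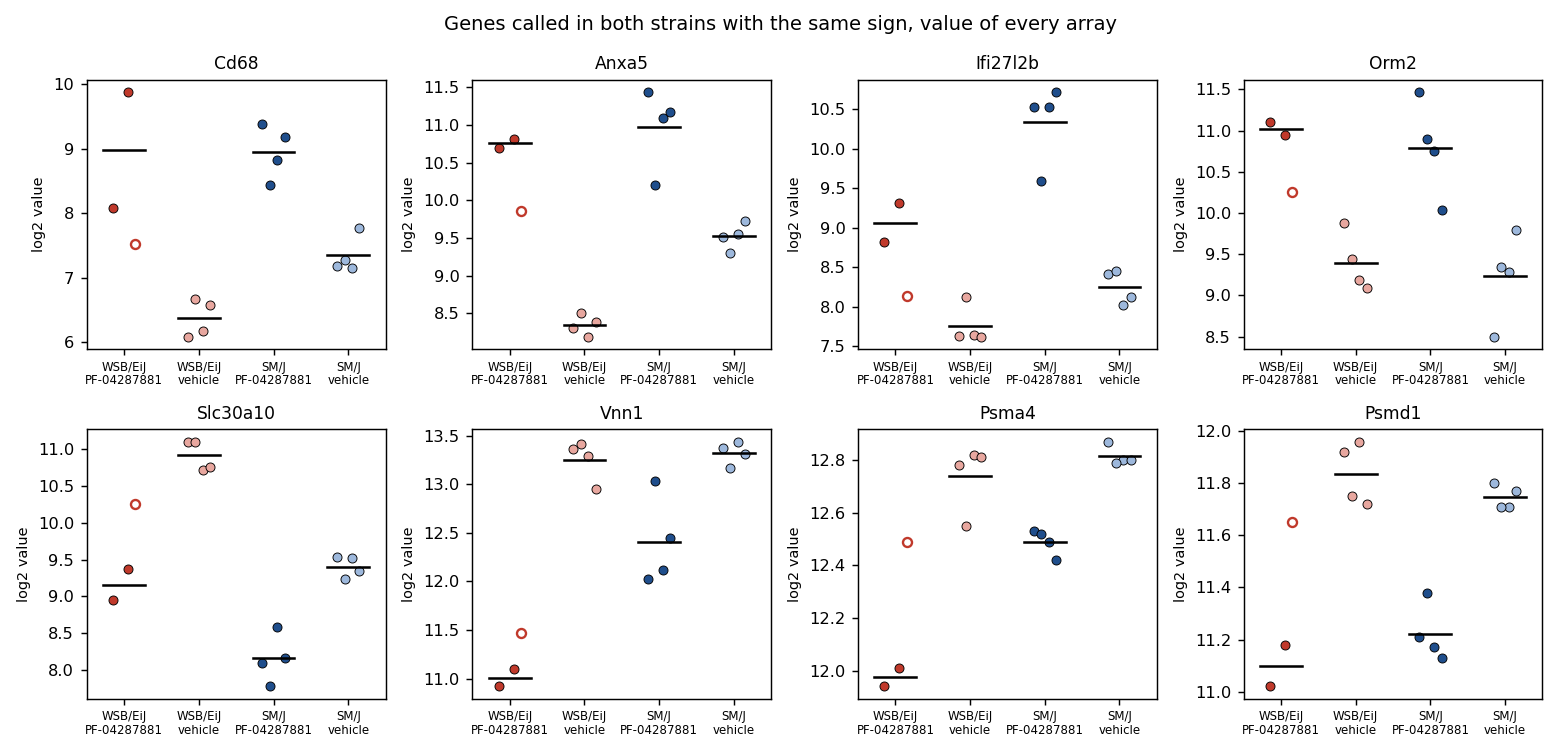
Log2 value of every WSB/EiJ and SM/J array for 8 genes called in both strains with the same sign. Groups run WSB/EiJ PF-04287881, WSB/EiJ vehicle, SM/J PF-04287881 and SM/J vehicle, bars mark means of the arrays in the fit, and the hollow point is the array in doubt. In each panel the PF-04287881 arrays of the fit lie on the same side of vehicle in both strains, above it for Cd68, Anxa5, Ifi27l2b and Orm2 and below it for Slc30a10, Vnn1, Psma4 and Psmd1.

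Markers of other liver cells moved beside these lists. In bulk tissue, fewer cells of a type and less RNA per cell cannot be told apart. Of 18 Kupffer cell markers 9 rose and 2 fell in WSB/EiJ, beside 13.8% and 18.6% of all genes, with a median effect of 0.88. None was called in SM/J, where only 2.66% of all genes rose and 1.99% fell, and the median was 0.21. Called differences were 2, both lower, Slc40a1, an iron exporter (-0.86 ± 0.20), and Nr1h3, a sterol-sensing receptor (-0.41 ± 0.10), while the median difference was 0.68. The mean of the 18 was 0.67 to 0.72 in the WSB/EiJ PF-04287881 animals, against -0.26 to 0.2 in WSB/EiJ vehicle animals, and -0.12 to 0.52 in the SM/J PF-04287881 animals, against -0.09 to 0.22 in SM/J vehicle animals. Without WSB/EiJ PF-04287881 animal 1, WSB/EiJ effects were called for 1 higher and 1 lower.

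Of 19 markers of monocytes and lipid-associated macrophages 5 rose in WSB/EiJ, beside 13.8% of all genes. In SM/J 1 rose, Cd68, beside 2.66%, and no difference was called among the 19 markers. Their mean was 0.62 to 0.83 in the WSB/EiJ PF-04287881 animals, against -0.12 to 0.15 in WSB/EiJ vehicle animals, and 0.24 to 0.51 in the SM/J PF-04287881 animals, against -0.09 to 0.07 in SM/J vehicle animals. These ranges do not overlap in either strain. The marker list itself holds Cd68, and it shares Cd68, Cd63 and Ctss with the lysosomal list, so these lists move together in part by construction. The part of these cells in the rise of Cd68 and of the lysosomal list was not tested. Of 17 sinusoidal endothelial markers 1 rose and 3 fell in WSB/EiJ, beside 13.8% and 18.6% of all genes. In SM/J 2 of these markers fell, beside 1.99% of all genes. Their mean was -0.41 to 0.06 in WSB/EiJ PF-04287881 animals, against -0.19 to 0.12 in WSB/EiJ vehicle animals, and -0.76 to -0.21 in SM/J PF-04287881 animals, against -0.14 to 0.17 in SM/J vehicle animals. Platelet markers were higher in the WSB/EiJ response for 2 of 5, Pf4 and Gp9, beside Vwf. Stellate cell markers were higher for 1 of 14 (Reln), T and NK cell markers for 1 of 7 (Il2rb) and erythroid markers for 1 of 5 (Tfrc), and cholangiocyte markers were lower for 1 of 6 (Pkhd1). The call for Reln was lost when any 1 of 12 arrays was left out, for Gp9 any 1 of 4, for Pkhd1 any 1 of 3, and for Il2rb and Tfrc 1 array each. No difference was called among 7 neutrophil, 7 B and plasma cell and 5 dendritic cell markers.

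**Figure D5:**
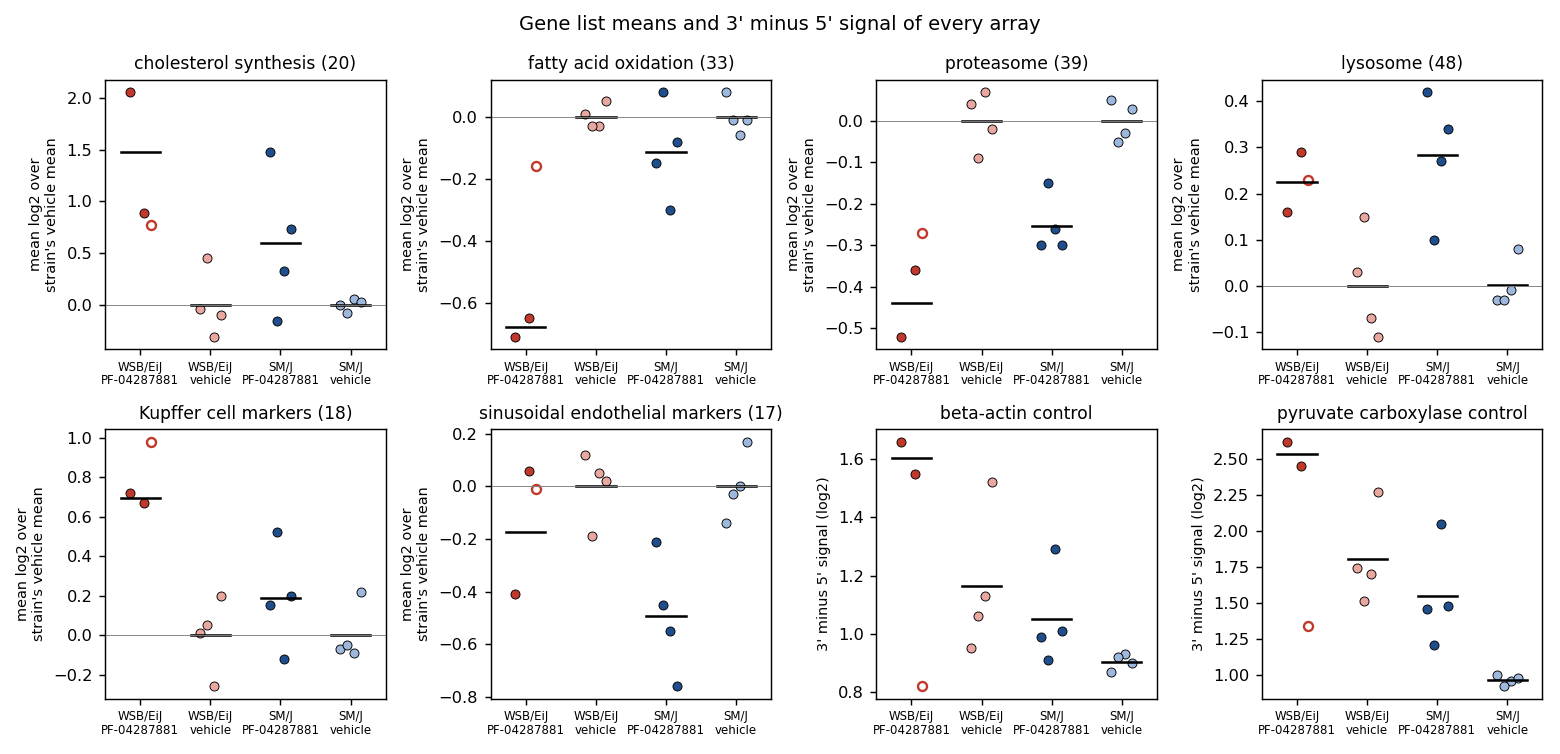
Mean of 6 gene lists on every WSB/EiJ and SM/J array, in log2 units relative to the vehicle mean of the strain, with the 3′ minus 5′ signal of the actin and pyruvate carboxylase controls. Groups run WSB/EiJ PF-04287881, WSB/EiJ vehicle, SM/J PF-04287881 and SM/J vehicle, and the hollow point is the array in doubt. Proteasome means lie below vehicle in both strains, fatty acid oxidation means lie below vehicle in WSB/EiJ while the SM/J treatments overlap, and the control signals are highest on the WSB/EiJ PF-04287881 arrays of the fit.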

How the data were processed

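The files hold 1 log2 value per probe set and array, which the authors made with Affymetrix Power Tools and RMA, per the submitters' processing notes; the versions, scan dates and genome build are not given in the sources used here. RMA corrects background, normalises arrays by quantiles and summarises probes. The values ran from 2.71 to 14.9 and array medians from 6.43 to 6.54. No arrays were identical, and correlations between arrays ran from 0.958 to 0.9962. The number of arrays limits the precision, and the labels give 1 animal per array.

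Of 44721 probe sets, 34728 had 1 symbol, 872 several and 9121 none. Symbols were updated through Entrez numbers (34525 matched in annotation GRCm38.p6, used for names only). For each of 18147 genes the brightest probe set on average was used, and 12890 genes above the median of all values, 6.49, on at least 3 arrays were tested. A model with 1 mean per group was fitted in limma 3.58.1 (R 4.3.3, package data.table at version 1.17.8) to 30 arrays, all but the array in doubt, with 22 residual and 3.58 prior degrees of freedom. The procedure was checked on simulated data with known changes.

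The 29 pathway lists and 12 marker lists, the comparison and the alternatives were chosen with earlier results of these data known. Of 1114 listed genes 112 had no probe set and 61 were dim. A list is described by counts of called members and its median, without a set test. Named genes are the 12 largest called differences each way, up to 6 called in both strains with opposite signs, the 10 largest shared effects each way by the smaller effect, and per list the 4 largest called differences (otherwise 2 as values) and 3 shared members. Predicted and clone names (699 tested, 80 of the called differences) are counted, not named. Other genes named beside a count of 5 or fewer, and the promoter examples, were chosen after their values were seen. Promoter windows are RefSeq's for GRCm38.p6.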

Additional observations from a re-analysis of the deposited data

Results flagged for a closer look

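The 24 largest called response differences and the 6 largest opposed ones, which include Nr1d1, Junb and Nmrk1, differed between WSB/EiJ and SM/J by the interaction test. Higher in WSB/EiJ were Nr1d1 (3.92), Vwf (3.73), Socs3 (3.35), Trim63 (3.24), Cd14 (3.18), Pim3 (3.00), Hao2 (2.97), Junb (2.89), Rab30 (2.81), Itpkc (2.69), Lyve1 (2.66) and Csrnp1 (2.63). Lower were Ncbp2 (-4.02), Meiob (-3.30), Sucnr1 (-3.23), Stxbp6 (-3.14), Nmrk1 (-2.94), Apol7a (-2.94), Keg1 (-2.90), Crebzf (-2.84), Zfp866 (-2.80), Zfp719 (-2.50), Tardbp (-2.47), Ttc39a (-1.92), Ccdc122 (-1.83) and Arid4a (-1.74). Nfe2l2 was flagged at -2.45 by its brighter probe set, but the other gave 2.05, so no direction is given for it.

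Among named genes, 11 single arrays stood apart from the other 3 of their group by Dixon's test, in 141 groups tested, where chance gives about 1 in 20. SM/J vehicle animal 1 stood apart for Apol7a (10.2, the others 11.09 to 11.27), Cd14 (8.28, the others 7.71 to 7.78), Hao2 (8.98, the others 11.18 to 11.48) and Zfp866 (7.55, the others 8.56 to 8.71). WSB/EiJ vehicle animal 3 stood apart for Aox1 (9.60, the others 11.28 to 11.59) and Dhcr7 (9.63, the others 9.03 to 9.13). WSB/EiJ vehicle animal 4 stood apart for Lyve1 (4.97, the others 7.62 to 8.10) and Ifi27l2b (8.12, the others 7.62 to 7.64). Single arrays were WSB/EiJ vehicle animal 2 for Arid4a (7.86, the others 7.38 to 7.44), SM/J PF-04287881 animal 4 for Ifi27l2b (9.59, the others 10.53 to 10.72) and SM/J PF-04287881 animal 1 for Junb (8.70, the others 8.31 to 8.37).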

How the results depend on the processing

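Counts are given in the order response difference, WSB/EiJ effect, SM/J effect and shared genes, which were 2196, 4180, 600 and 293. With the array in doubt they were 595, 2488, 334 and 133, and with these strains fitted alone 1097, 3206, 120 and 65. With the 3′ minus 5′ signal as a covariate, an alternative chosen after seeing the data, they were 1925, 2435, 368 and 156. Without a filter, with a stricter filter, with the mean over probe sets, with array medians set equal and with a trended, robust prior, the differences numbered 2049 to 2213 and the shared genes 236 to 333. With 1 array left out at a time the ranges were 904 to 3179, 2187 to 4797, 291 to 804 and 145 to 418. The lowest came without WSB/EiJ PF-04287881 animal 1 for the first pair and without SM/J PF-04287881 animal 1 for the other pair, and the highest without WSB/EiJ vehicle animal 3 for all 4. The SM/J calls also fell without SM/J PF-04287881 animal 3 (356) and SM/J vehicle animals 2 (363), 3 (397) and 4 (368), and the shared genes without SM/J PF-04287881 animal 3 (180) and SM/J vehicle animals 2 (172) and 4 (189). Of 121 named differences, 43 were called with the array in doubt as well, 76 lost their call without a change of sign, and 2 more lost it and changed sign, Manba (0.09) and Rpl14 (0.05). The covariate ended 18 of the 121 calls, these strains alone 47, and leaving out WSB/EiJ PF-04287881 animal 1 ended 60, with no sign changed. When 1 array was left out at a time, 52 of the 121 were called in every fit and 69 lost their call in at least 1. Apart from the smaller groups that the left-out arrays and the separate fit leave, the cause was not tested. Same-numbered PF-04287881 and vehicle animals deviated together with correlations of -0.033 and 0.20 in WSB/EiJ and of -0.11 to 0.23 in SM/J, so the numbers were not taken as pairs, and the replicate block gave 2157, 4080, 581 and 278 calls.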
